A study of Mus musculus with 8 samples.

Results

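Of the 1499 domains in which H2A.X was marked as higher in DNMT1 knockout (KO) embryonic stem cells than in their control, 1312 lay on chromosomes 1 to 19 without chromosomes 6 and 8. The regions described here are the 443 of these 1312 that shared no base with any domain marked as higher in 2i medium than in serum. The other 869, or 66.2% of the 1312, met a 2i domain and are called the shared domains. The 6 deposited lists together hold 25499 domains. The members were chosen by the authors' marks in the DNMT1 list and in the list of serum against 2i, so their lengths, DNMT1 scores and distances from 2i domains are a description and were not tested. Absent from 2i here means that no 2i domain was called there against serum, and not that H2A.X was lacking in 2i cells.

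H2A.X is a variant of histone H2A that is built into nucleosomes and is phosphorylated around DNA breaks. DNMT1 copies methylation of CpG sites onto the new strand after replication, so that cells without it lose DNA methylation as they divide. Mouse embryonic stem cells in 2i, a medium with inhibitors of MEK and GSK3, are likewise known for low DNA methylation, whereas cells in serum are more methylated. TDG is a glycosylase that cuts out oxidised forms of methylcytosine during active demethylation. The comparison asks where an H2A.X call without DNMT1 had no matching call in 2i, and what the other lists hold there.

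H2A.X was mapped by native chromatin immunoprecipitation after micrococcal nuclease digestion, with 1 library per condition and no replicates. The DNMT1 KO cells (strain 129S6/C57B6) were grown in serum. Wild-type cells of the same strain were grown in 2i, in PKCi medium with 5 µM of the protein kinase C inhibitor Gö6976, or in SRCi medium with 1.5 µM of the Src inhibitor CGP77675 and 3 µM of the GSK3 inhibitor CHIR99021. The TDG control, the Tdg knockdown (KD), the TKO control and the TKO cells were of strain 129/Ola and grown in serum, and both controls were wild type. TKO is not spelled out in the labels, and neither the clone nor the knockdown construct is named. The libraries of the DNMT1 control and of wild-type cells in serum enter only through the lists.

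Each list sets 1 library against another and marks every domain as higher in the first or in the second, which are called its sides. A domain meets a side when they share at least 1 kb, the grid of the lists. Each domain carries the authors' signed score, which has no stated unit and runs lower toward the second library, here the knockout. The score is centred away from 0, and its median over all bases of the DNMT1 list on these 17 chromosomes was -2.70. In the serum, PKCi, SRCi, TDG KD and TKO control domains that members met, the mean score lay on the side of 0 that belongs to the other library. A mark as higher in one of these need not mean more H2A.X there. Read depth is unknown. Regions of 1 pair of libraries are not replicates, so no difference below carries a p-value, and Wilson 95% intervals cover counting error only.

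The members were shorter than the shared domains. Their median length was 28 kb (quartiles 16 and 49 kb, range 1 to 244 kb), against 58 kb (quartiles 29 and 97 kb, range 1 to 665 kb) for the shared domains. Only 20 members but 205 shared domains reached 100 kb. The members thus made up 33.8% of the knockout domains and 20.3% of their bases, covering 16.2 Mb of 2191 Mb of chromosome. A longer domain meets a 2i domain more readily by its length alone, and the share of members fell from 61.7% of knockout domains of 10 to 19 kb to 10.5% of those of 80 kb or more. The shortest domains, of 1 to 9 kb, did not follow this order, with 41.4% members.

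**Figure D1:**
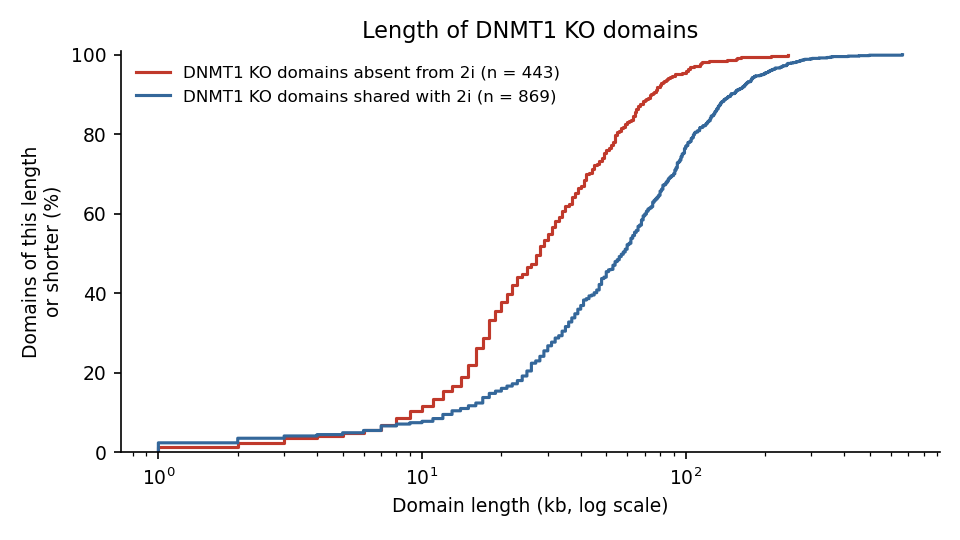
Cumulative percentage of domains (vertical axis) by domain length in kb (horizontal, log scale) for the 443 DNMT1 KO domains absent from 2i and the 869 shared with 2i. The curve of the absent domains lies to the left through most of its course, with medians of 28 kb and 58 kb.

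Over all lengths the median signed score was -6.77 in members (quartiles -7.75 and -6.22) and -6.49 in shared domains (quartiles -7.36 and -6.01). The lowest score, farthest toward the knockout, was -57.3 among members and -267 among shared domains. The second deposited score, divided by length in kb, had a median of 0.821 in members and 0.799 in shared domains. Short domains scored farther toward the knockout in both groups, and at like length the members scored less far toward it than the shared domains. The medians were -10.8 and -21.7 at 1 to 9 kb, -7.70 and -8.20 at 10 to 19 kb, -6.77 and -6.82 at 20 to 39 kb, -6.19 and -6.31 at 40 to 79 kb, and -5.77 and -6.06 at 80 kb and more. Weighted by bases, the mean was -6.54 in members and -6.94 in shared domains.

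At the edge of the rule, 3 members touched a 2i domain without sharing a base. They were chr2:126532001-126547000, 15 kb long with a score of -7.89, chr9:122835001-122918000, 83 kb with -6.51, and chr14:79299001-79358000, 59 kb with -5.66. A single kb in common with a 2i domain was found in 36 shared domains. Of these, 21 were themselves 1 kb long and so lay wholly inside a 2i domain. Longer ones just outside the rule included chr1:7339001-7378000, 39 kb with a score of -7.07, and chr1:153182001-153251000, 69 kb with -5.76. Of the 443 members, 417 lay at least 10 kb from a 2i domain. The median member lay 156 kb from the nearest 2i domain (quartiles 53.5 and 372 kb). The farthest, chr4:154980001-155007000, lay 7784 kb away.

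The longest member was chr1:119860001-120104000, at 244 kb with a score of -5.34, which lay 200.0 kb from a 2i domain and wholly inside an SRCi domain. It met neither side of the TDG and TKO lists. It was followed by chr7:49798001-50009000, at 211 kb with a score of -7.36, and chr4:143776001-143958000, at 182 kb with -5.60. Then came chr7:50071001-50233000, at 162 kb with -6.36, which starts 62 kb beyond the end of the 211 kb member. The other 6 of the 10 longest measured 114 to 157 kb and scored between -5.98 and -5.64. They were chr15:76953001-77110000, chr7:27016001-27171000, chr5:138627001-138770000, chr9:96143001-96266000, chr1:183832001-183947000 and chr2:59048001-59162000. Of these 10, 7 lay within 200.0 kb of a 2i domain, and chr7:27016001-27171000 and chr1:183832001-183947000 lay 1487 and 1687 kb away.

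The members that scored farthest toward the knockout were very short. They were led by the 1 kb domain chr5:60434001-60435000, at -57.3, followed by chr13:60543001-60545000 (2 kb, -27.7), chr11:108873001-108875000 (2 kb, -25.6), chr16:11144001-11147000 (3 kb, -23.8) and chr11:114908001-114910000 (2 kb, -18.6). None of these 5 met the TDG control side or the TKO side. The 3 of 2 kb lay wholly inside serum, PKCi, SRCi and TDG KD domains. The domain on chromosome 16 met no domain of any other list, and that on chromosome 5 met only a PKCi and an SRCi domain. A part of repeat sequence in these short peaks of score was not tested.

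In the list of serum against 2i, most members lay in neither side. A serum domain was met by 92 of 443 members, or 20.8% (Wilson 95% interval 17.2% to 24.8%), beside 13.3% of all 1312 knockout domains and 9.44% of the shared ones. The remaining 351 members, 79.2%, met no domain of this list. By bases, 93.1% of the members' length was in no domain of the list, beside 61.4% of the chromosomes. Serum domains covered 6.90% of the members' length and 33.7% of the chromosomes. Serum domains held 28 members whole. The signed score at these member bases had a mean of -7.60 and a median of -7.53, against -7.23 and -7.57 over all serum bases of these chromosomes. Most members were therefore places with no call between serum and 2i, and a minority were called as higher in serum. With 2i domains excluded by the rule, these were the only outcomes left. The shared domains, with 54.6% of their bases in 2i domains by the rule, had less room for the serum side of the same list.

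The lists of 2i against PKCi and against SRCi may share a 2i library with each other and with the list that set the rule, so their values are given side by side only. The 2i side over PKCi was met by 0 of 443 members, which by the limit of 3 counts allows a share of up to 0.677% (Wilson 95% upper bound 0.860%), beside 6.17% of all knockout domains. The 2i side over SRCi was also met by 0 of 443, with the same limit, beside 6.02% of all. Among the shared domains these sides were met by 81 and by 79 of 869. Outside 2i domains, where all members lie by the rule, both sides are nearly missing. They covered 0.0285% (over PKCi) and 0.0424% (over SRCi) of all bases within 49 kb of a 2i domain. Farther out they covered at most 0.000738%. The rule thus left members little room to meet them, and the 0 counts are a description only.

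The opposite sides are broad, covering 83.4% of these chromosomes for PKCi and 85.1% for SRCi. A PKCi domain was met by 309 members, or 69.8% (65.3% to 73.8%), beside 52.4% of all knockout domains and 43.6% of the shared ones. An SRCi domain was met by 371 members, or 83.7% (80.0% to 86.9%), beside 67.9% of all and 59.8% of the shared ones. Of the members' bases 52.6% lay in PKCi domains and 70.0% in SRCi domains, so both shares were below the cover of the chromosomes. In shared domains the cover of bases was 15.7% and 26.0%. Scores in these lists rise toward 2i. At the members' bases within PKCi domains the mean was 4.59, against 4.91 over all PKCi bases, and within SRCi domains it was 5.53 against 5.91.

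**Figure D2:**
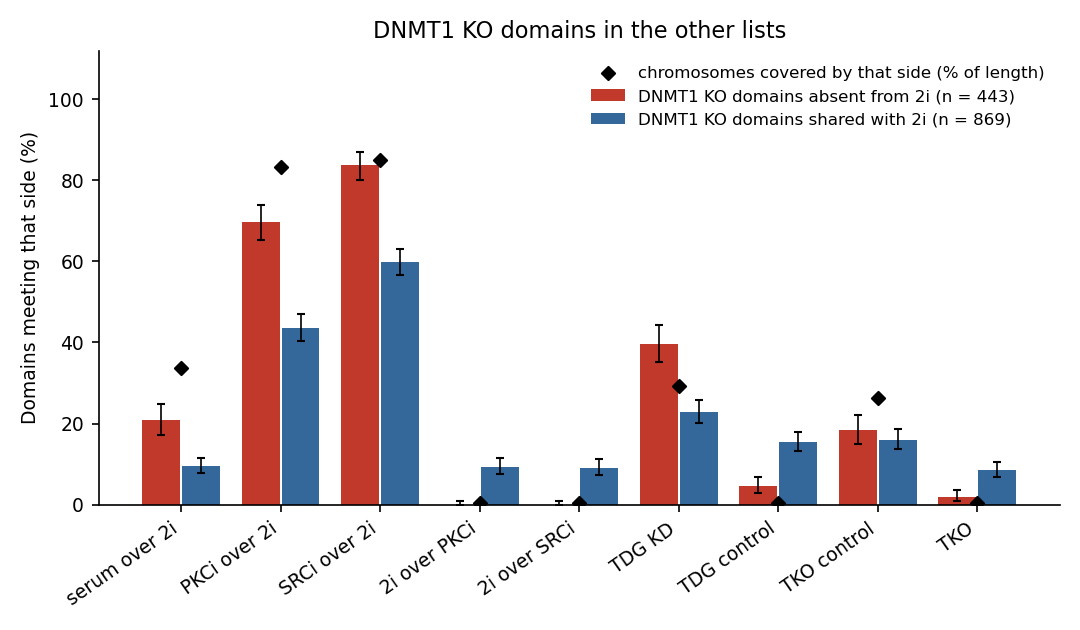
Percentage of DNMT1 KO domains that met each side of the other lists by at least 1 kb (bars, Wilson 95% intervals as lines) for domains absent from 2i and shared with 2i, with the percentage of the 17 chromosomes covered by each side as diamonds. Bars of the absent domains are higher for the serum, PKCi, SRCi and TDG KD sides, lower for both 2i sides, TDG control and TKO, and about level for TKO control.

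The TDG and TKO lists name no library of the rule and come from another strain. The rule may still bear on their values, since shared domains had 54.6% of their bases in 2i domains and members had no base there. Their narrow sides, TDG control and TKO, covered 0.282% and 0.405% of the chromosomes. The TDG control side, higher than after knockdown, was met by 20 of 443 members, or 4.51% (2.94% to 6.87%), beside 11.7% of all knockout domains. Among shared domains it was met by 134 of 869, or 15.4% (13.2% to 18.0%). By bases, TDG control domains covered 2.34% of the members, 8.30 times their cover of the chromosomes, and 6.06% of the shared domains, 21.5 times. Members thus lay in TDG control domains more than the chromosomes did and less than the shared domains did. Seen from the TDG list, 20 of its 387 control domains on these chromosomes met a member and 144 met a shared domain.

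The 20 members in TDG control domains lay on 9 chromosomes, 6 of them on chromosome 7. They measured 1 to 211 kb with a median of 46 kb, and a median of 36.8% of their length was covered. Their TDG scores, which rise toward the control and are averaged over all TDG list bases within a member, ran from 0.621 to 25.9 with a median of 4.21. The 25.9 belonged to chr7:7521001-7522000, a single kb with a DNMT1 score of -13.9. The largest covered stretches were 60 kb of chr7:49798001-50009000, 56 kb of chr7:50071001-50233000 and 49 of the 50 kb of chr12:25093001-25143000. The chromosome 12 member lay 2174 kb from any 2i domain and 3161 kb from the next knockout domain, with a DNMT1 score of -7.89 and a TDG score of 5.31. Chromosome 2 held chr2:174975001-175005000 and chr2:176857001-176861000, both wholly inside TDG control and TKO control domains, with TDG scores of 6.37 and 6.93.

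The TKO side was met by 8 of 443 members, or 1.81% (0.918% to 3.52%), beside 6.25% of all knockout domains, and by 74 of 869 shared domains, or 8.52% (6.84% to 10.6%). TKO domains covered 1.09% of the members' bases, 2.68 times their cover of the chromosomes, and 4.71% of those of the shared domains, 11.6 times. The 8 members measured 1 to 162 kb and lay on 6 chromosomes. Their TKO scores, which fall toward TKO and are averaged likewise, ran from -8.68 to -3.27 with a median of -4.36. Those wholly inside TKO domains were chr15:74837001-74900000 (63 kb, TKO score -4.60), chr7:66642001-66680000 (38 kb, -5.74), chr17:25075001-25095000 (20 kb, -4.13), chr2:174845001-174847000 (2 kb, -5.94) and chr12:19253001-19254000 (1 kb, -8.68). The other 3 were covered in part.

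One member, chr7:50071001-50233000, met both the TDG control side, over 56 kb with a score of 3.70, and the TKO side, over 40 kb with -3.45. It also met a serum domain over 63 kb and lay wholly inside PKCi and SRCi domains. Its neighbour chr7:49798001-50009000, 62 kb away, met TDG control over 60 kb but the opposite side of the TKO list, TKO control, over 61 kb. Of the members 416 met neither TDG control nor TKO, 19 met TDG control alone and 7 met TKO alone. Among shared domains 42 of 869 met both and 703 met neither.

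The broad sides of these lists gave another order. TDG KD domains, marked as higher after knockdown, were met by 176 of 443 members, or 39.7% (35.3% to 44.4%), beside 28.5% of all knockout domains and 22.8% (20.1% to 25.7%) of the shared ones. By bases they covered 28.2% of the members, 10.8% of the shared domains and 29.1% of the chromosomes. The members thus lay in TDG KD domains about as much as the chromosomes as a whole, and the shared domains less. On 16 of 17 chromosomes the percentage was higher in members than in shared domains, the exception being chromosome 18 at 13.3% and 17.6%. By the rule, 54.6% of the shared domains' bases and no base of a member lay in 2i domains. This order may therefore follow from the rule on every chromosome, and it is a description only. Of the 176, 149 were wholly inside a TDG KD domain. The median score at their bases was 0.194, against 0.246 over all TDG KD bases. As TDG scores rise toward the control, the members' value lay slightly toward the knockdown, and this difference was not tested.

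TKO control domains were met by 81 of 443 members, or 18.3% (15.0% to 22.2%), beside 16.8% of all knockout domains and 16.0% (13.7% to 18.6%) of the shared ones. By bases they covered 14.2% of the members and 14.6% of the shared domains, against 26.4% of the chromosomes. Chromosome 11 carried much of this. TKO control domains covered 94.8% of it, and 34 of its 34 members met one. Without chromosome 11 the count was 47 of 409 members, or 11.5%, and 81 of 810 shared domains, or 10.0%. The Wilson intervals of members and shared domains over all 17 chromosomes overlapped.

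Because members were shorter, each comparison was also read among domains of like length. Like length does not remove the rule, by which shared domains hold bases of 2i domains and members do not. The order of the groups may therefore follow from the rule, and this was not tested. In all 5 length classes the TDG control side and the TKO side were met by a smaller percentage of members than of shared domains. For TDG control the classes from 1 to 9 kb up to 80 kb and more gave 4.35%, 2.70%, 2.92%, 5.31% and 13.9% of members against 35.4%, 13.0%, 9.50%, 8.84% and 20.5% of shared domains. For TKO they gave 4.35%, 1.80%, 1.46%, 0.885% and 2.78% against 35.4%, 13.0%, 5.03%, 4.02% and 7.49%. The gap was widest among domains of 1 to 9 kb, where 2 of 46 members and 23 of 65 shared domains met each side. In the longest class 5 of 36 members met TDG control and 1 met TKO.

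TDG KD was met by more of the members in each length class, with 54.3% against 24.6% at 1 to 9 kb and 33.3% against 19.2% at 80 kb and more. The groups lay closest at 40 to 79 kb, with 32.7% against 24.5%. For the serum and SRCi sides, whose lists set the rule or may share its 2i library, the percentages by class are a description only. They were 17.1% against 11.6% for serum at 10 to 19 kb and 83.3% against 69.4% for SRCi at 80 kb and more, the classes in which the groups lay closest. For TKO control the order changed, with 21.2% of members against 11.2% at 20 to 39 kb and 11.5% against 16.5% at 40 to 79 kb. The order of members and shared domains was thus the same in each length class for TDG control, TKO and TDG KD. As the rule is the same in each class, this repeat is a description and not separate support. Whether the differences exceed the spread between libraries could not be tested.

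**Figure D3:**
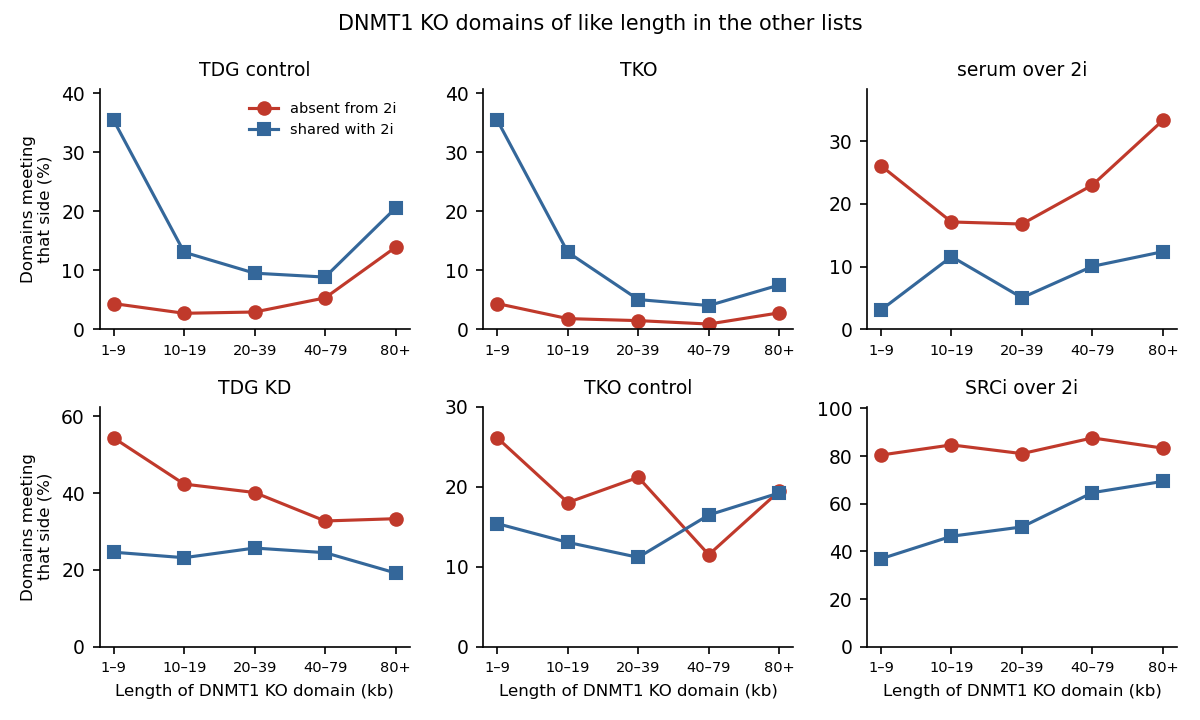
Percentage of DNMT1 KO domains meeting 6 sides (vertical axes, each on its own scale from 0) in 5 classes of domain length in kb (horizontal), for domains absent from 2i (circles) and shared with 2i (squares). Circles lie below squares in every class for TDG control and TKO, above in every class for serum, TDG KD and SRCi, and cross for TKO control.

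How far a member lay from the nearest 2i domain went with its place in the TDG list. TDG KD domains were met by 16.0% of the 100 members within 49 kb of a 2i domain, 31.8% of the 151 at 50 to 199 kb, 52.6% of the 116 at 200 to 499 kb and 67.1% of the 76 at 500 kb or more. Median length hardly changed over these classes, from 28.5 to 26.5 kb. All bases of the chromosomes at the same distances, outside 2i domains and the first 3 Mb, showed the same course. TDG KD domains covered 13.7%, 22.7%, 34.3% and 53.3% of them, and 9.66%, 21.2%, 41.9% and 46.2% of the members' bases. The rise with distance was thus seen in the chromosomes as a whole and in the members alike.

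The 8 members in TKO domains all lay within 199 kb of a 2i domain, 4 within 49 kb and 4 beyond. TKO domains covered 0.791%, 0.347%, 0.191% and 0.0517% of all bases in these classes in turn. They thus thinned out with distance in the chromosomes as a whole too. TDG control domains thinned out likewise, covering 0.350%, 0.101%, 0.0657% and 0.0381% of all bases in turn. The 20 members in TDG control domains were nevertheless spread over all classes, with 5, 6, 3 and 6 in turn. In the farthest class TDG control covered 3.61% of the members' bases, from 6 of 76 members. SRCi domains covered 72.0% to 95.9% of all bases and 56.7% to 80.0% of the members' bases, lower for the members in each class. Serum domains covered 13.8% of all bases in the nearest class and 56.5% in the farthest, but 2.93% and 7.29% of the members' bases. The members' cover by serum domains stayed below that of all bases in each class.

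**Figure D4:**
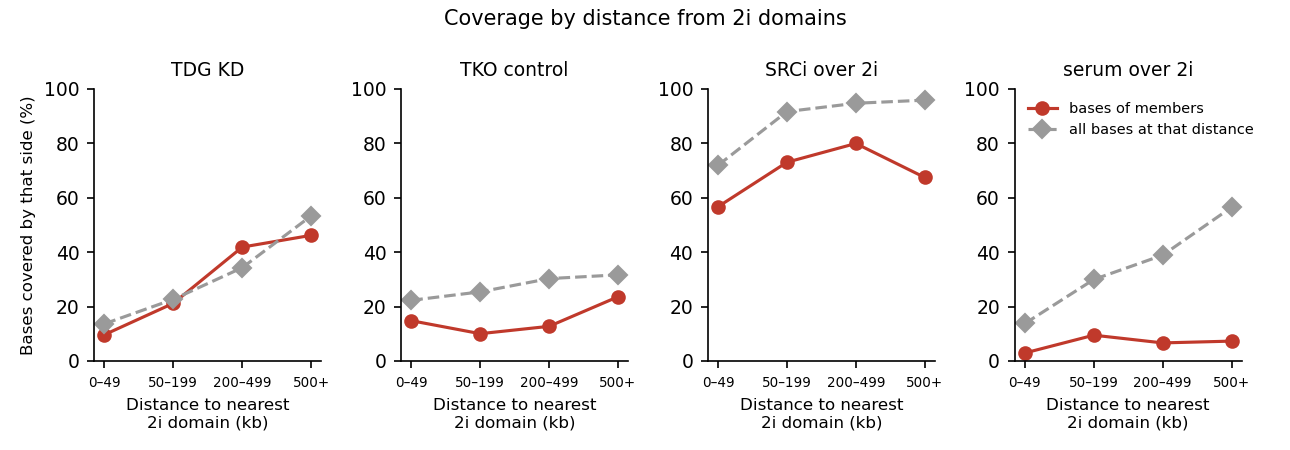
Percentage of bases covered by the TDG KD, TKO control, SRCi and serum sides (vertical axes) by distance in kb from the nearest 2i domain (horizontal), for the bases of the members (circles) and for all bases of the 17 chromosomes at that distance outside 2i domains (diamonds). Both curves rise together for TDG KD, while the members stay below 10% for serum as all bases rise to 56.5%.

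Members were found on all 17 chromosomes. Chromosome 9 held most, at 43, and the highest density, at 34.7 per 100 Mb, and was followed by chromosome 11 at 27.9 and chromosome 5 at 24.9. The lowest densities were 7.99 on chromosome 14, with 10 members, 11.4 on chromosome 19, with 7, and 11.6 on chromosome 15, with 12. Members made up 43.0% of the knockout domains of chromosome 9 and 16.3% of those of chromosome 19. The 2i side of the serum list covered 3.96% of the former and 9.61% of the latter. Chromosomes 10 and 15 ran the other way, with 37.9% and 28.6% members at a 2i cover of 4.68% and 3.55%. Shared domains were densest on chromosomes 19 and 12, at 58.7 and 54.4 per 100 Mb. The last 5 Mb of chromosomes held 20 members, 4.51% (2.94% to 6.87%), and the first 5 Mb after position 3 Mb held 18, 4.06% (2.59% to 6.33%). Each stretch makes up 3.97% of these chromosomes without their first 3 Mb, which lies within both intervals.

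**Figure D5:**
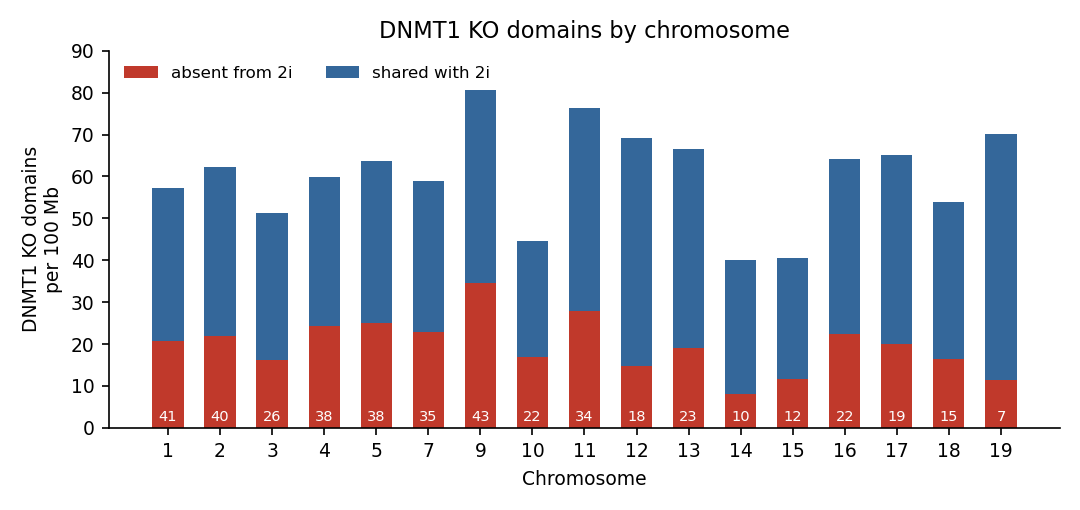
DNMT1 KO domains per 100 Mb (vertical axis) on each of the 17 chromosomes (horizontal), stacked as absent from 2i (lower part, with its number of domains printed) and shared with 2i (upper part). The absent part is tallest on chromosome 9, with 43 domains, and lowest on chromosome 14, with 10.

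Members stood apart from each other and from other knockout domains by at least 21 kb, with a median of 229 kb to the next knockout domain, against 236 kb for shared domains. Along the chromosomes, 177 members had a shared domain or a chromosome end on both sides, and 148 stood in 40 runs of 3 or more members with no shared domain between them. The longest runs held 7. That of chr9:108112001-110136000 was the denser, with 387 kb of members in 2024 kb. Its 7 members measured 30 to 100 kb, scored between -7.10 and -5.86 and lay 42 to 377 kb from a 2i domain, although 3 2i domains fell within the stretch. Of them 4 met TDG KD, 6 PKCi, 6 SRCi, 2 serum, and none TDG control or either side of the TKO list. The other, chr5:130423001-139063000, spread 313 kb of members over 8640 kb. These runs were picked after their values were seen.

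Across the 9 sides that members could meet, 33 of 443 met none. In the TDG and TKO lists alone, 205 members, 46.3%, met no domain, against 466 shared domains, 53.6%. TDG KD and TKO control were both met by 31 of 443 members and by 41 of 869 shared domains. Chromosome 11 weighed heavily in both counts. There TKO control was met by 34 of 34 members and 58 of 59 shared domains, and TDG KD by 19 and 26 of them. Of the 92 members in serum domains 48, 52.2%, also met TDG KD, and of the other 351 members 128, 36.5%, did. The same order was seen in shared domains, at 37.8% and 21.2%. By DNMT1 score, the 111 members farthest toward the knockout (scores of -57.3 to -7.75, median length 12 kb) met TDG KD in 50.5% of cases, and the 111 nearest to 0 (-6.22 to -5.15, 58 kb) in 38.7%. The 111 and 110 members between them gave 36.0% and 33.6%. TDG control was met by 5, 6, 4 and 5 members of these classes, from the farthest toward the knockout to the nearest to 0. The few members it held were thus spread about evenly over the knockout score.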

How the data were processed

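The submitters' processing notes name Bowtie2 2.0.6 and the build mm9. For the domain caller, its settings and any depth scaling, details were not given in the sources used here. The authors deposited 1 list of domains per pair of libraries, with a mark for the higher library and 2 columns of scores without a stated unit. The lists carry no header, so the first and second library follow the order of conditions in each list's name. Per list, the authors' scores were used only to describe domains.

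Members, lengths, distances and shared 1 kb bins were computed with Python 3.11.15, numpy 2.4.6 and pandas 2.3.3, and tested on simulated domains. Wilson intervals used scipy 1.17.1. Samples were grouped by title, and with 1 library per condition no difference was tested. Members and comparisons were chosen with earlier results of these data known. Named regions are the 10 longest members, the 5 with the lowest DNMT1 score, those meeting both TDG control and TKO, and those at the edge of the rule; other regions were named after their values were seen. Alternatives changed the distance from 2i, score, length, chromosomes, merging and overlap. Coordinates are mm9, counted from 1. Genes and sequences are not given, since an mm9 genome or annotation was not used here.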

Additional observations from a re-analysis of the deposited data

How the results depend on the processing

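Of 93 values of 11 results under 9 alternatives, 73 moved by less than their spread and 20 by more. Some of the 73 could not move, so the tally overstates how stable the results are. Merging left every member as it was. No member met the 2i side over PKCi or over SRCi. Alternatives that only kept or narrowed the same members could therefore not change the values for these sides. The number of members, 443, became 260 with the 50% of knockout domains scoring farthest toward the knockout and 1007 when the 2i side was limited to the 50% of its domains scoring farthest toward 2i, both through the construction of the alternative. The median length of 28 kb became 18 kb and 42 kb in these settings. Both moves were within 1 SD of the lengths of single domains and so were counted among the 73. That SD is the spread between domains and not the error of a median. With that smaller 2i side the percentage of members meeting serum went to 14.1%, 2i over PKCi to 1.19%, PKCi to 52.6%, SRCi to 70.1% and TDG KD to 30.4%. TKO control went to 22.7% with the highest knockout scores and to 11.5% without chromosome 11. Counting a member only where at least 50% of it was covered gave 7.67% for serum, 53.3% for PKCi, 1.58% for TDG control and 73.1% for SRCi. By bases in place of domains the values were 28.2% for TDG KD, 2.34% for TDG control, 6.90% for serum, 14.2% for TKO control, 52.6% for PKCi and 70.0% for SRCi. Knockout domains of 20 to 60 kb, an alternative chosen after seeing the data, gave 2.84% for TDG control. Merging knockout domains within 10 kb changed nothing, since the closest lay 21 kb apart. For the other moves the cause was not tested. Planned counts of genes and base composition were not run without mm9 annotation. No paired analysis was possible because no condition has a second library. Limits set by read depth could not be worked out, as the lists hold no read counts.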

Other observations

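On the chromosomes left out of the rule, knockout domains absent from 2i were rare. Chromosome 6 had 1 of 95 knockout domains that met no 2i domain, at 52 kb, and chromosome 8 had 0 of 63. The 2i side of the serum list covered 68.0% and 64.1% of these chromosomes. On X, where it covered 1.50%, 1 of 18 knockout domains met no 2i domain, a stretch of 3 kb, and on Y it was 0 of 10.

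A region near the end of chromosome 4 held the members farthest from any 2i domain, chr4:154869001-154933000 (64 kb, DNMT1 score -5.77) and chr4:154980001-155007000 (27 kb, -6.30), which lay 47 kb apart and 7673 and 7784 kb from the nearest 2i domain. Both were wholly inside TDG KD and PKCi domains and met neither side of the TKO list. The next was chr2:168010001-168030000 (20 kb, -7.74), 5337 kb from a 2i domain and 6815 kb from the next knockout domain, which was wholly inside TDG KD, TKO control, PKCi and SRCi domains.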
